A study of Mus musculus with 3 samples.

Results

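Myelin is assembled from a small set of membrane and adaptor proteins, and 8 of the genes that encode them were followed here through every cell type of the mouse lumbar spinal cord. The genes were *Mbp*, *Mobp*, *Mal*, *Pmp22*, *Mog*, *Mag*, *Cnp* and *Cldn11*, which are 8 of the 31040 genes in the deposited count table. They were taken by their symbols and not by a cut on any measured value, though earlier results of these data were known. Nuclei were profiled by single-nucleus RNA sequencing from 12 mice at 90 days of age. Of these, 6 were *SOD1G93A* mice of the strain B6.Cg-Tg(SOD1*G93A)1Gur/J, which carry a mutant human SOD1 transgene in high copy number under the human gene's own promoter, and 6 were WT mice of the C57BL/6J background. Each genotype had 3 females and 3 males, each mouse was a separate sample, and each of 3 library pools (A, B and C) combined 4 mice, a female and a male per genotype, whose nuclei were told apart by hashtag oligonucleotides. In a model that expresses the transgene in all cells, a difference in 1 cell type can arise in that cell or in its neighbours, and these cannot be told apart.

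Oligodendrocytes wrap axons of the central nervous system, and Schwann cells do so in peripheral nerve and spinal roots. In compact myelin the cytoplasmic faces of the wrapped membrane are pressed together, chiefly by myelin basic protein (*Mbp*), with the related adaptor encoded by *Mobp*. *Mal* encodes a small proteolipid of membrane rafts, and *Pmp22* encodes a tetraspan protein of compact peripheral myelin whose gene dosage is altered in hereditary neuropathies. The remaining genes encode proteins outside the compact layers: *Mag* lies in the innermost membrane facing the axon, *Mog* on the outermost surface, *Cnp* keeps cytoplasmic channels open, and *Cldn11* forms the tight junctions between wraps. MYRF, a transcription factor of mature oligodendrocytes, drives the central myelin programme.

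The start-site windows of the genes were read from RefSeq (build GRCm38.p6), each from 250 bases before to 50 after an annotated start. Windows were given for 7 of the 8 genes, all but *Mbp*, 12 windows in all since some genes have several starts, and the 7-base core bound by MYRF, searched as CTGGCAC and CTGGTAC on both strands, was found in the windows of *Mog*, *Mag* and *Cnp*. Of all 32851 windows of the same length, 5.93% held either form (4.19% CTGGCAC and 1.83% CTGGTAC). The stretches of 60 bases around the match are given because they are the part of each promoter with the letters of the programme's regulator, which are in capitals. The *Mog* stretch is at chr17:37023449-37023508 on the minus strand, where CTGGTAC reads as its reverse complement, that of *Mag* at chr7:30914923-30914982 on the minus strand, and that of *Cnp* at chr11:100574831-100574890 on the plus strand.
Mog: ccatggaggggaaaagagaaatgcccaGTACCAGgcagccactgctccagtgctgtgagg
Mag: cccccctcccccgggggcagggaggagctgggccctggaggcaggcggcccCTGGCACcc
Cnp: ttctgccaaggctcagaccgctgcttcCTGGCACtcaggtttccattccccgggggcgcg

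The matches ended 77 bases before the start of *Mog*, 3 bases before 1 of the annotated starts of *Mag* (the match begins 68 bases before the other) and 75 bases before that of *Cnp*. No window of *Mobp*, *Mal*, *Pmp22* or *Cldn11* held the letters. The SOX10-like letters AACAAAG were present for *Mobp* and *Cnp* (5.03% of all windows), AACAAT for none of the genes (9.42% of all windows), and the GC-rich EGR-like letters GGGGGCG for *Cldn11*, *Pmp22* and *Cnp* (14.8% of all windows). A match of letters describes the sequence and is not evidence of binding.

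The table held 14662 nuclei and 206486779 unique molecular identifiers (UMIs, 1 for each captured RNA molecule), with 548 to 2259 nuclei and 6411715 to 36668441 UMIs per mouse, and 15 nucleus barcodes occurred in more than 1 pool. The 10 cell types and sub-clusters of oligodendrocytes and astrocytes were taken from the deposited annotation. For each mouse and type the UMIs were summed over nuclei and are given as counts per 1000000 UMIs of that sum (CPM). Such a level is a share of the RNA, so a change in other genes of a cell moves it too, and in a sum over nuclei fewer nuclei with an RNA and less of it per nucleus cannot be told apart. Ependymal nuclei came from 11 mice and fibroblast nuclei from 10, and motor neurons (67 nuclei, 1 to 11 per mouse) and oligodendrocyte precursors (OPCs; 181 nuclei, 2 to 26 per mouse) were few.

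The first comparison asked whether the myelin genes differed between genotypes in the cells that make central myelin. None of the 8 passed the test in oligodendrocytes, and the fitted differences were at most 0.25 on the log2 scale. The 2165 oligodendrocyte nuclei gave 44 to 387 nuclei and 455337 to 3044005 UMIs per mouse. The summed level of the 8 genes was 4329 CPM in the lowest WT mouse, 5268 CPM at the median and 5961 CPM in the highest, against 4337, 5438 and 6158 CPM in *SOD1G93A* mice. The genotypes overlapped over nearly their whole ranges.

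Among the genes of compact myelin, *Mbp* stood at 2199, 2753 and 3084 CPM (lowest, median and highest of 6 WT mice) and at 2258, 2814 and 3160 CPM in *SOD1G93A* mice. Its log2 fold change, *SOD1G93A* over WT, was 0.05 ± 0.10 (SE; 95% confidence interval -0.17 to 0.27). Myelin basic protein is the adaptor without which compact central myelin does not form, and its RNA overlapped between genotypes over nearly the whole range. *Mobp* stood at 1045, 1100 and 1181 CPM in WT mice and at 821, 1119 and 1316 CPM in *SOD1G93A* mice, with a log2 fold change of -0.04 ± 0.12 (interval -0.30 to 0.22). The *SOD1G93A* mice spread more widely than the WT mice, both below and above them. *Mal* stood at 70.2, 90.3 and 155 CPM in WT mice and at 74.7, 115 and 141 CPM in *SOD1G93A* mice (log2 fold change 0.09 ± 0.13, interval -0.19 to 0.38). *Pmp22*, best known from peripheral myelin, was at 21.3, 24.8 and 33.2 CPM in WT mice and at 14.5, 24.3 and 29.3 CPM in *SOD1G93A* mice (-0.14 ± 0.18, interval -0.53 to 0.24). Its lowest value was in a male *SOD1G93A* mouse, and 1 other *SOD1G93A* mouse lay just below the WT range.

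Among the genes of non-compact myelin, *Mog* stood at 484, 585 and 721 CPM in WT mice and at 474, 565 and 650 CPM in *SOD1G93A* mice (log2 fold change -0.08 ± 0.12, interval -0.34 to 0.18). The axon-facing *Mag* stood at 285, 401 and 501 CPM against 327, 418 and 513 CPM (0.08 ± 0.15, interval -0.25 to 0.41). Neither gene of the sheath's inner and outer surfaces separated the genotypes. *Cnp* stood at 47.6, 63.1 and 79.0 CPM in WT mice and at 51.0, 60.9 and 101 CPM in *SOD1G93A* mice (0.02 ± 0.14, interval -0.28 to 0.32), with 1 male *SOD1G93A* mouse above all others. *Cldn11* had the largest fitted difference of the 8, at 156, 198 and 245 CPM in WT mice and 158, 246 and 311 CPM in *SOD1G93A* mice (0.25 ± 0.16, interval -0.09 to 0.59). It was higher in 4 of 6 pairs of mice of the same sex and pool, and the genotypes overlapped from 158 to 245 CPM.

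The adjusted p (limma) was 0.9997 for each of the 8, and 5 of the 10521 genes tested in oligodendrocytes were called at a false discovery rate of 0.1 (0.0475%). None of the 8 had an unadjusted p under 0.05, which 4.77% of all tested genes had, and edgeR and DESeq2 called none of them either. Their median log2 fold change was 0.03, beside 0.01 for all genes. Thinned to 1000 UMIs per nucleus, *Mbp* was detected in 91.0% ± 1.64 (SD, n = 6) of WT and 93.2% ± 2.14 (SD, n = 6) of *SOD1G93A* oligodendrocytes, and *Mog* in 49.1% ± 6.10 and 44.2% ± 7.32.

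**Figure D1:**
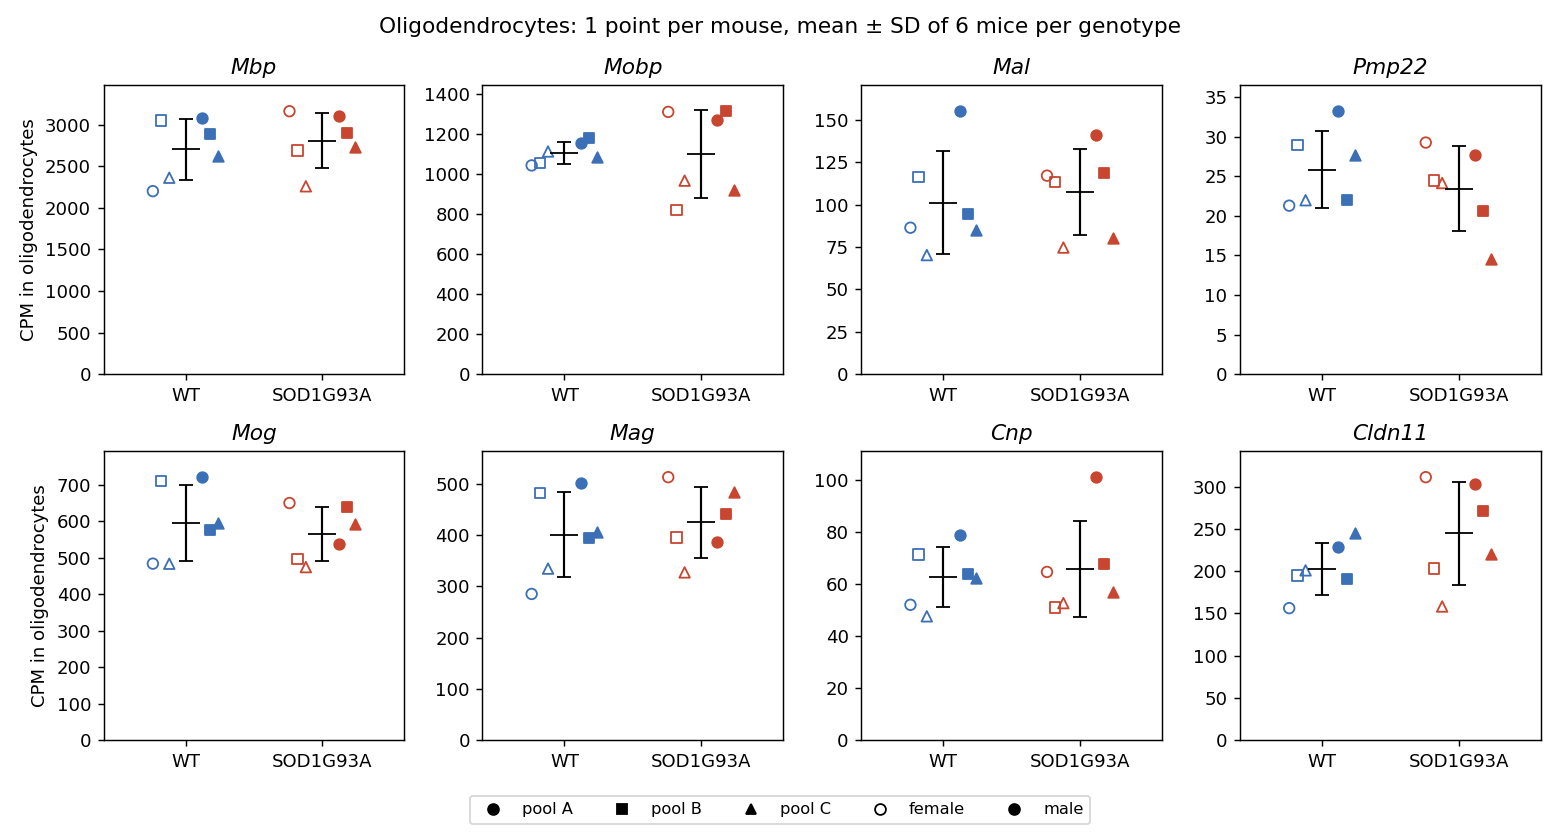
CPM of the 8 genes in oligodendrocytes (vertical axes, from 0), with 1 point per mouse, shapes for pools, open symbols for females, and bars for the mean ± SD of 6 mice per genotype. The genotypes overlap in every panel, and *Cnp* has 1 *SOD1G93A* mouse at 101 CPM.

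The oligodendrocytes were divided by the study into sub-clusters 0 to 4, of 711, 693, 576, 132 and 53 nuclei. These were drawn on the expression of genes that include the ones described, so their levels are a description. The summed level ran from 6487 CPM in sub-cluster 0 and 6334 CPM in sub-cluster 1 to 5416 CPM in sub-cluster 4, 4537 CPM in sub-cluster 2 and 3314 CPM in sub-cluster 3, and neighbours in the order overlapped between mice. The genes did not share 1 order. *Mog* was at 791 CPM in sub-cluster 0 and at 195 CPM in sub-cluster 4, whereas *Mag* was at 527 and 535 CPM in the same sub-clusters and *Cldn11* at 296 and 385 CPM. *Pmp22* ran from 46.4 CPM in sub-cluster 0 to 6.04 CPM in sub-cluster 4, and *Mal* was highest in sub-cluster 2 (145 CPM) and lowest in sub-cluster 4 (23.4 CPM). The small sub-cluster 4 thus combined levels of *Mbp* (3518 CPM) close to those of sub-clusters 0 (3211 CPM) and 1 (3650 CPM) with low *Mog*, *Mobp* (648 CPM), *Mal* and *Pmp22*. It had 1 to 10 nuclei per mouse, its *Mbp* varied by an SD of 1897 CPM, and its *Mal* and *Pmp22* rested on 18 and 6 UMIs.

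Between genotypes, 36 tests of the genes could be made within these sub-clusters and none passed, where 12 of 21804 tests of all genes did (0.055%). Unadjusted p under 0.05 was reached in 4 of the 36 (11.1%, beside 4.93% of all genes), and edgeR and DESeq2 made no call. Of the 4, 3 were the tight-junction gene *Cldn11*. In sub-cluster 1 it stood at 118, 135 and 154 CPM in WT mice and at 94.3, 195 and 255 CPM in *SOD1G93A* mice (log2 fold change 0.46 ± 0.15, adjusted p = 0.591), higher in 5 of 6 pairs. In sub-cluster 0 it stood at 163, 266 and 319 CPM against 253, 348 and 402 CPM (0.37, adjusted p = 0.841), again higher in 5 of 6 pairs, and in sub-cluster 3 the log2 fold change was 0.63 (adjusted p = 0.987). Values in sub-cluster 2 (0.12) and sub-cluster 4 (-0.23) were nearer to 0 or of the other sign, and ranges overlapped in all 5. The fourth was *Mobp* in sub-cluster 4, at 191, 948 and 1655 CPM in WT mice and 64.0, 365 and 670 CPM in *SOD1G93A* mice (-1.78 ± 0.49, adjusted p = 0.921), which rested on 53 nuclei in all.

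Across the 10 cell types the genes did not have 1 pattern, and the levels below are a description, since the study's clusters were drawn and named on the expression of the same nuclei. Reads were counted over whole genes, introns included, without correction for length, so each gene is compared with itself between types. *Mog* stood at 580 ± 87.6 CPM (SD, n = 12 mice) in oligodendrocytes, 245 CPM in microglia, 216 CPM in OPCs and 129 CPM in Schwann/meningeal cells. *Mag* stood at 413 ± 73.6 CPM in oligodendrocytes and at 181, 180 and 124 CPM in Schwann/meningeal cells, microglia and OPCs. *Mobp* stood at 1104 ± 154 CPM, followed by 449 CPM in microglia, 351 CPM in OPCs and 350 CPM in Schwann/meningeal cells. For these 3 genes the lowest oligodendrocyte value lay above the highest value of the type next in order, and no other neighbours in the order of any of the 8 genes were separated. The margins differed, the lowest oligodendrocyte value and the highest of any other type being 474 and 461 CPM (OPCs) for *Mog*, 285 and 282 CPM (Schwann/meningeal cells) for *Mag*, and 821 and 620 CPM (Schwann/meningeal cells) for *Mobp*.

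*Mbp* was also led by oligodendrocytes (2753 ± 337 CPM), but its range overlapped that of the Schwann/meningeal cells (1795 ± 653 CPM), and it stood at 977 ± 120 CPM in microglia, 897 ± 261 CPM in astrocytes and 856 ± 334 CPM in OPCs. Neurons (157 ± 42.6 CPM) and motor neurons (139 CPM) were at the low end. *Cnp* and *Cldn11* were highest in Schwann/meningeal cells, at 221 ± 92.9 and 406 ± 136 CPM, beside 64.2 ± 14.9 and 224 ± 50.9 CPM in oligodendrocytes. *Mal* was led by endothelial cells (330 ± 84.2 CPM), with Schwann/meningeal cells at 270 ± 125 CPM and oligodendrocytes at 104 ± 26.9 CPM. *Pmp22* was led by Schwann/meningeal cells (116 ± 59.8 CPM), then fibroblasts (52.8 ± 88.9 CPM, n = 10), endothelial cells (52.0 ± 20.1 CPM), motor neurons (47.5 ± 19.9 CPM), astrocytes (42.1 ± 7.20 CPM) and oligodendrocytes (24.7 ± 5.02 CPM), and was lowest in neurons (2.92 ± 1.04 CPM). Oligodendrocytes thus held the highest mean of 4 of the 8 genes.

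**Figure D2:**
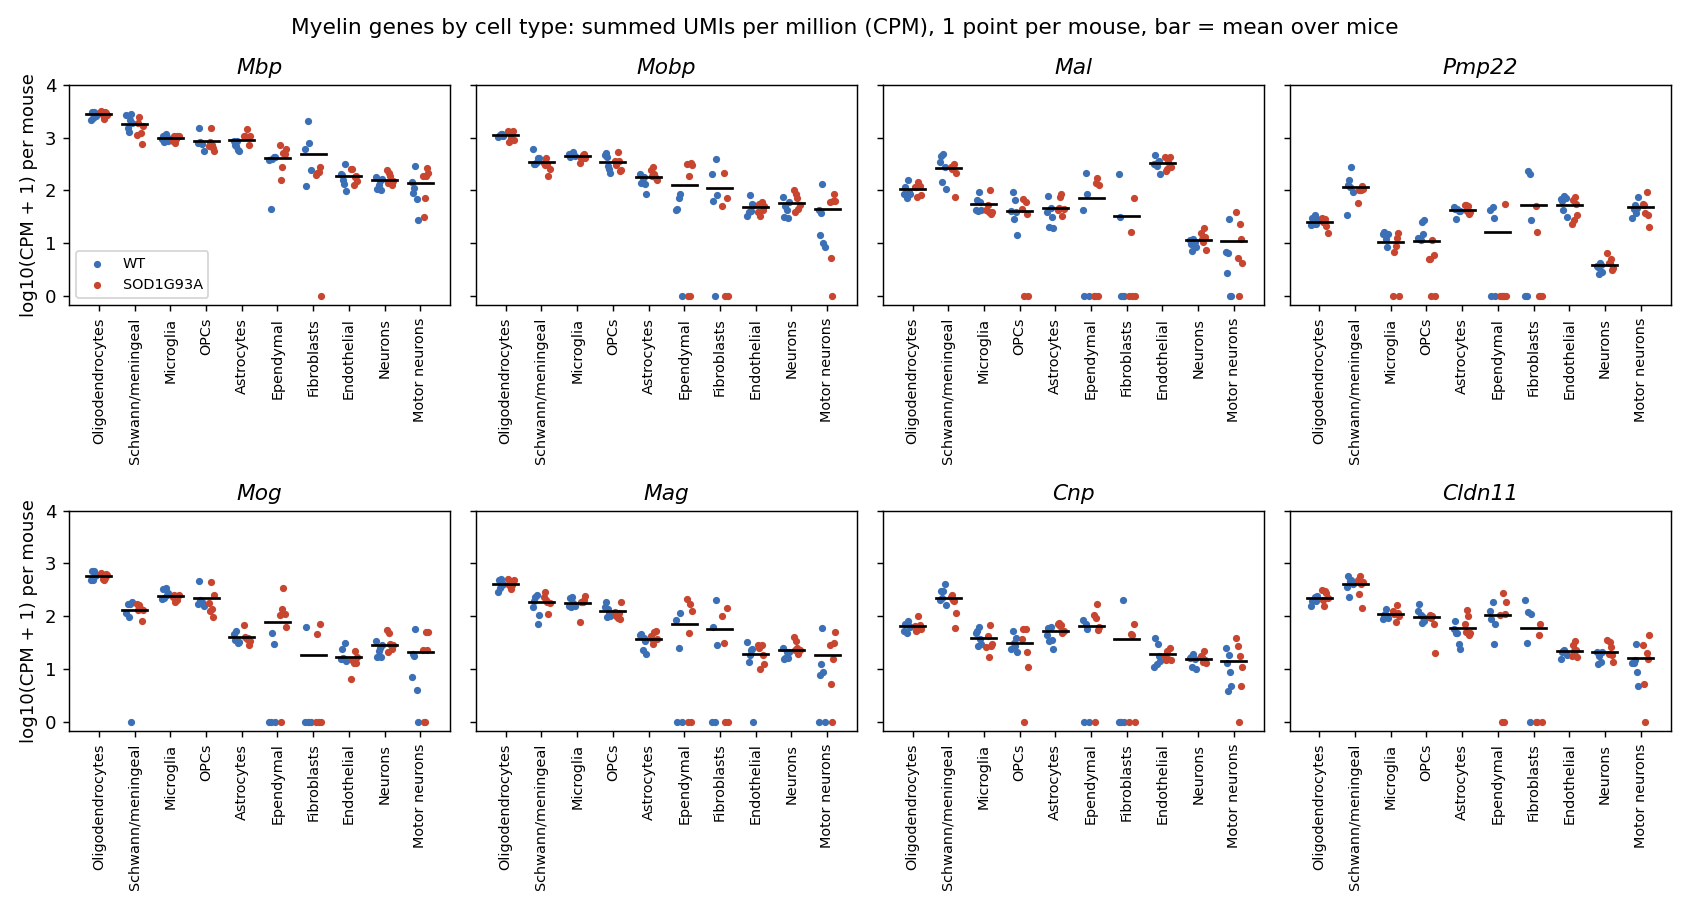
Level of each gene by cell type as log10(CPM + 1), with 1 point per mouse, WT in blue and *SOD1G93A* in red, and a bar at the mean over mice. For *Mog*, *Mag* and *Mobp* every oligodendrocyte point lies above every point of the other types, while *Mal* is highest in endothelial cells and *Pmp22*, *Cnp* and *Cldn11* in Schwann/meningeal cells.

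Nuclei of types that do not make myelin carried many of these RNAs, and the part of free RNA in the suspension and of nuclei caught together was not tested. Oligodendrocytes were 11.3 to 17.6% of nuclei in WT mice (median 12.7%) and 6.93 to 27.5% in *SOD1G93A* mice (median 14.4%), yet held only 39.9 to 53.2% and 23.8 to 67.2% of the 8 genes' UMIs. The summed level in neurons was 3.62 to 8.24% of that in the same mouse's oligodendrocytes in WT mice (median 5.10%) and 4.38 to 9.98% in *SOD1G93A* mice (median 6.04%). In astrocytes it was 15.7 to 30.8% in WT mice (median 21.3%) and 19.7 to 48.9% in *SOD1G93A* mice (median 28.7%). The highest astrocyte value was that of the female *SOD1G93A* mouse of pool C, whose oligodendrocytes were the smallest share of nuclei (6.93%). Nuclei with as many of these UMIs per 10000 as the top 95% of oligodendrocytes made up 67.4% of Schwann/meningeal nuclei, 40.8% of microglia, 19.3% of OPCs, 16.9% of astrocytes, 4.19% of endothelial nuclei and 0.648% of neurons.

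The make-up of the RNA from these genes can be set against that of oligodendrocytes, where *Mbp* gave 52.3% of it, *Mobp* 20.9%, *Mog* 11.1%, *Mag* 7.79%, *Cldn11* 4.15%, *Mal* 2.01%, *Cnp* 1.24% and *Pmp22* 0.459%. In microglia each gene's share was 0.889 to 1.64 times that in oligodendrocytes. The microglia markers *Cx3cr1*, *Csf1r* and *Ptprc* summed to only 80.9 CPM there, beside 518 CPM of neuron markers and 672 CPM of OPC markers. In the nuclei with at most 1 neuron-marker UMI microglial *Mbp* was 1.69 times, *Mog* 1.84 times, *Mag* 1.88 times and *Mobp* 1.48 times the level given above. Microglial nuclei had a median depth of 46927 UMIs, beside 5786 in oligodendrocytes. A limit of 1 UMI therefore also selects shallow nuclei, and the effects of depth and of neuron RNA cannot be told apart. In neurons *Mbp* (50.8%), *Mobp* (17.2%), *Mog* (8.53%) and *Mag* (7.02%) were near the oligodendrocyte shares, while *Cnp* took 4.29 times, *Pmp22* 2.17 times, *Mal* 1.85 times and *Cldn11* 1.53 times its share there. In astrocytes *Mbp* took 66.0% and *Mog* 2.78%, which are 1.26 and 0.252 times the oligodendrocyte shares, and *Pmp22* took 7.09 times. In Schwann/meningeal cells the shares of *Pmp22* (7.13 times), *Cnp* (4.96 times), *Mal* (4.52 times) and *Cldn11* (3.17 times) were raised, and those of *Mobp* (0.482 times) and *Mog* (0.394 times) lowered. Free RNA need not have the make-up of oligodendrocyte nuclei, so these ratios do not say where the RNA came from.

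**Figure D3:**
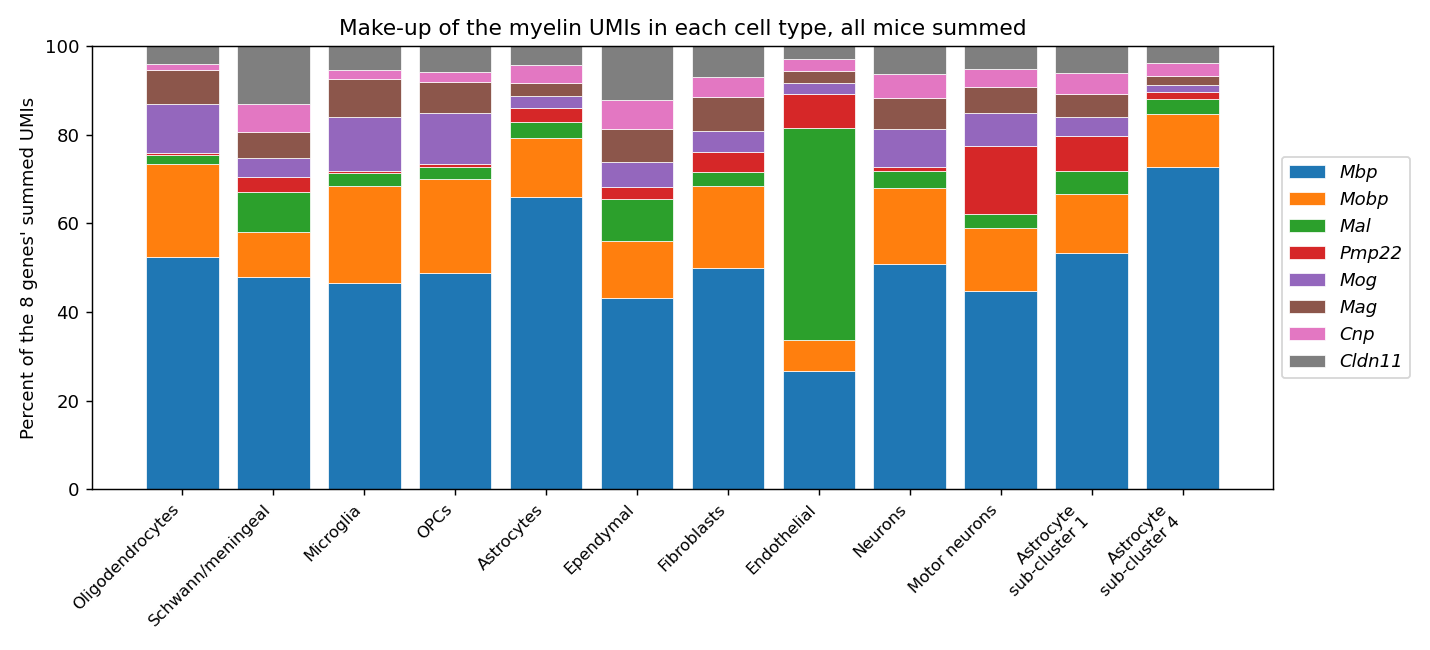
Percent of the summed UMIs of the 8 genes that each gene gave, by cell type and in astrocyte sub-clusters 1 and 4, all mice summed. Endothelial cells are set apart by *Mal* (47.7%), motor neurons by *Pmp22* (15.5%) and astrocyte sub-cluster 4 by *Mbp* (72.8%).

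In astrocytes, cells that support neurons and do not form myelin, *Mbp* was higher in *SOD1G93A* mice, and it was the only call among 50 tests of the genes between genotypes in the 9 types other than oligodendrocytes. It stood at 570, 704 and 864 CPM in WT mice and at 731, 1064 and 1473 CPM in *SOD1G93A* mice. The *SOD1G93A* mouse was higher in 6 of 6 pairs, and the ranges overlapped through 1 *SOD1G93A* mouse, the male of pool B. The log2 fold change was 0.50 ± 0.11 (interval 0.27 to 0.73), a 1.41-fold difference, with an adjusted p of 0.0247 (limma), where 214 of 9347 genes were called in astrocytes (2.29%) and 129 were called higher (1.38%). The call was lost when the pool C WT male (0.42, adjusted p = 0.153) or the pool C *SOD1G93A* female (0.43, adjusted p = 0.104) was left out, and the adjusted p was 0.00726 to 0.153 over 20 alternatives of method, scaling and samples (other choices of nuclei follow).

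No other gene was called in astrocytes, and all 8 fitted differences were above 0, with *Mog* so near 0 that its sign changed under other scalings and tests. *Mobp* stood at 84.6, 155 and 200 CPM in WT mice and at 160, 197 and 273 CPM in *SOD1G93A* mice (0.38 ± 0.13, adjusted p = 0.198), and *Cnp* at 22.7, 38.8 and 60.5 CPM against 46.2, 65.6 and 72.2 CPM (0.47 ± 0.17, adjusted p = 0.204), each higher in 6 of 6 pairs. Neither passed the test, though *Cnp* did when the pool B WT female was left out (0.61, adjusted p = 0.0984). *Cldn11* (0.48, adjusted p = 0.400), *Mal* (0.36, adjusted p = 0.649), *Mag* (0.18, adjusted p = 0.697), *Pmp22* (0.12, adjusted p = 0.818) and *Mog* (0.00 ± 0.18, adjusted p = 0.998) had larger adjusted values. The median over the 8 was 0.37, beside 0.02 over all genes. Of the 3 astrocyte markers, the reactive-state gene *Gfap* (1.12) and the water channel *Aqp4* (0.80) rose in *SOD1G93A* astrocytes, and the folate enzyme gene *Aldh1l1* was at -0.20 (adjusted p = 0.570). The summed level of the neuron markers *Rbfox3*, *Camk2a* and *Grin1* in astrocytes ran from 103 to 209 CPM in WT and from 143 to 244 CPM in *SOD1G93A* mice. None of them passed, with *Rbfox3* at 0.53 (adjusted p = 0.228), *Camk2a* at 0.46 (adjusted p = 0.229) and *Grin1* at 0.02 (adjusted p = 0.984), and of the OPC markers *Vcan* was at 0.82 (adjusted p = 0.175) and *Tnr* at 0.01 (adjusted p = 0.988). The fitted values of *Rbfox3* and *Camk2a* were thus close to that of *Mbp*, and the part of RNA from other cells in the result was not tested. *Cd9*, a tetraspanin of myelin and other membranes, also rose (0.92 ± 0.15, adjusted p = 0.00297) and was the only called gene of the 12 tested of the list of other myelin membrane genes, of which 11 were above 0 (median 0.33). No gene of the other lists was called in astrocytes, where 3 of 5 lipid enzymes (median 0.07), 2 of 7 transcription factors of myelinating cells (median -0.14), 1 of 3 newly formed oligodendrocyte genes (median -0.05) and 1 of 2 peripheral genes (median -0.18) were above 0.

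The comparison was repeated in the 1117 of 1555 nuclei (71.8%) with no UMI of *Mog*, *Mag* or *Opalin*, whose median depth was 5166 UMIs beside 5338 in all. There *Mbp* had a log2 fold change of 0.61 ± 0.12 (adjusted p = 0.00347) and *Mobp* one of 0.61 ± 0.15 (adjusted p = 0.0221), where 3.33% of 7427 genes were called. *Cnp* (0.41, adjusted p = 0.385), *Cldn11* (0.18), *Pmp22* (0.01) and *Mal* (-0.00) did not pass. At the low levels of *Mog* and *Mag* in astrocytes a nucleus can lack their UMIs by sampling alone, so these nuclei cannot be taken as free of RNA from oligodendrocytes, and the part of such RNA in the *Mbp* difference was not tested.

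Within the 5 astrocyte sub-clusters of the study the *Mbp* difference was not seen. These sub-clusters, of 524, 438, 220, 195 and 178 nuclei, were made from the expression of genes that include *Mbp* and *Gfap*, and their levels of *Mbp* ranged widely. In sub-clusters 0, 1, 2, 3 and 4 the mean of the WT mice was 819 ± 245, 191 ± 46.0, 359 ± 172, 1205 ± 253 and 3772 ± 1171 CPM (SD, n = 6), and that of the *SOD1G93A* mice 820 ± 226, 237 ± 201, 316 ± 94.7, 1316 ± 354 and 2838 ± 614 CPM. The log2 fold changes were 0.00, 0.32, -0.10, 0.07 and -0.27, with adjusted p of 0.997, 0.881, 0.970, 0.930 and 0.981. Of 22 tests of the genes in sub-clusters none was called, where 10 of 16796 tests of all genes were (0.0595%), and 2 had an unadjusted p under 0.05 (9.09%, beside 6.07% of all genes), *Mobp* in sub-clusters 2 (-0.90) and 4 (-0.51). Counted over all mice of a genotype, different sub-clusters held the most nuclei, the *Mbp*-poor sub-cluster 1 in WT mice and sub-cluster 0 in *SOD1G93A* mice, though in some mice of each genotype another sub-cluster led or tied. The difference over all astrocytes combines levels within sub-clusters and how the nuclei spread over them, and these cannot be told apart here, since the sub-clusters were drawn on genes that differed between genotypes.

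Sub-cluster 4 carried as much *Mbp* (2850 CPM, mice summed) as oligodendrocytes did (2831 CPM), at a median depth of 5180.5 UMIs beside 5786. Its *Mog* was at 61.1 CPM beside 599 CPM, and the astrocyte markers *Aqp4*, *Aldh1l1* and *Gfap* summed to 1895 CPM beside 74.1 CPM. At least 1 UMI of these markers was found in 98.3% of its nuclei and in 31.7% of oligodendrocytes. Neuron markers were at 246 CPM beside 169 CPM. The nuclei thus had the astrocyte markers and *Mbp* together, with *Mog* at a share of the 8 genes 0.141 times that of oligodendrocytes. Sub-cluster 1 was at the other end, with *Mbp* at 196 CPM.

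**Figure D4:**
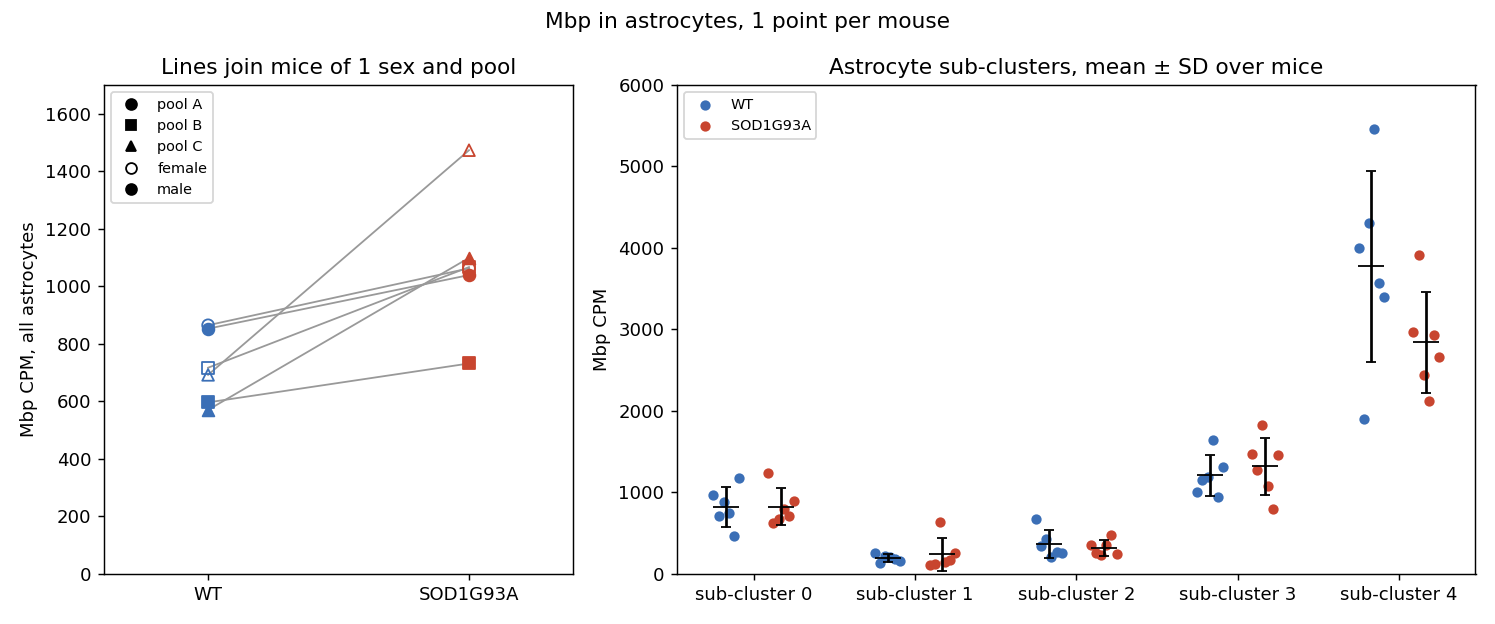
CPM of *Mbp* in all astrocytes (left, lines join the mice of 1 sex and pool) and within the 5 astrocyte sub-clusters (right, 1 point per mouse, mean ± SD). All 6 lines rise at left, while at right the genotypes overlap in each sub-cluster and sub-cluster 4 has the highest levels.

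In neurons, which carried low levels of these genes, each of the 8 had a fitted difference above 0 and none passed the test. *Mag* stood at 14.6, 17.6 and 24.1 CPM in WT mice and at 18.4, 22.8 and 39.2 CPM in *SOD1G93A* mice, higher in 6 of 6 pairs (0.50 ± 0.10, adjusted p = 0.209). *Mbp* stood at 101, 141 and 178 CPM against 124, 170 and 243 CPM, higher in 5 of 6 pairs (0.32 ± 0.08, adjusted p = 0.468). The ranges overlapped for both. *Mog* (0.47), *Mobp* (0.46), *Cldn11* (0.49), *Mal* (0.48) and *Pmp22* (0.40) also had an unadjusted p under 0.05 and *Cnp* (0.14) did not. That is 7 of 8, beside 4.16% of the 15681 genes tested in neurons, of which 4 were called (0.0255%). The median over the 8 was 0.47, beside 0.00 over all genes. edgeR called none and DESeq2 called *Mag* (adjusted p = 0.0634). When the pool A WT female was left out, limma called *Mag* (adjusted p = 0.0318), and when the pool C *SOD1G93A* male was left out it called *Cldn11* (0.61, adjusted p = 0.0566).

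No gene of the other myelin lists was called in neurons. Of the other myelin membrane genes 14 of 15 were above 0 (median 0.38, 10 with an unadjusted p under 0.05), and of the transcription factors of myelinating cells 9 of 10 (median 0.45, 7 with an unadjusted p under 0.05). Of the myelin lipid enzymes 6 of 7 were above 0 (median 0.31, 5 with an unadjusted p under 0.05). The newly formed oligodendrocyte list had a median of 0.06 (3 of 4 above 0, 1 with an unadjusted p under 0.05) and the peripheral list one of -0.08 (2 of 5 above 0, 2 with an unadjusted p under 0.05). Of the cell type markers, those of microglia had a median of 0.39, astrocytes 0.20, OPCs 0.16, endothelial cells 0.14 and neurons 0.01. Those of ependymal cells were at -0.10 and those of motor neurons at -0.21, and the 1 fibroblast marker tested, *Pdgfra*, was at 0.38. The 3 fibroblast markers summed to 428 CPM in fibroblasts and to 124 CPM in OPCs, and 1 of the 3 was highest in OPCs. In the 6334 of 8800 neurons (72.0%) with no UMI of *Mog*, *Mag* or *Opalin*, at a median depth of 12129 beside 12864.5 UMIs, the log2 fold change of *Mbp* was 0.06 (interval -0.16 to 0.28), that of *Mobp* 0.09, *Cnp* 0.04, *Cldn11* 0.13, *Mal* 0.14 and *Pmp22* 0.35. None of these 6 had an unadjusted p under 0.05, which 2.32% of all 14500 genes tested there had, and 0.0138% were called. The choice of nuclei used *Mog* and *Mag*, which are among the genes with a fitted difference in neurons, so these values are not independent of it. By neuronal sub-type the summed level of the 8 genes was 346 CPM in dorsal excitatory (DE) and 289 CPM in dorsal inhibitory (DI) neurons, 228 and 209 CPM in the mid excitatory (ME) and mid inhibitory (MI), and 150 and 145 CPM in the ventral excitatory (VE) and ventral inhibitory (VI) ones. This list is partial and without spread. It leaves out ventral cholinergic, ventral mixed and unclear neurons, and the unclear ones held 12743 of the 41477 UMIs of the 8 genes in neurons.

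**Figure D5:**
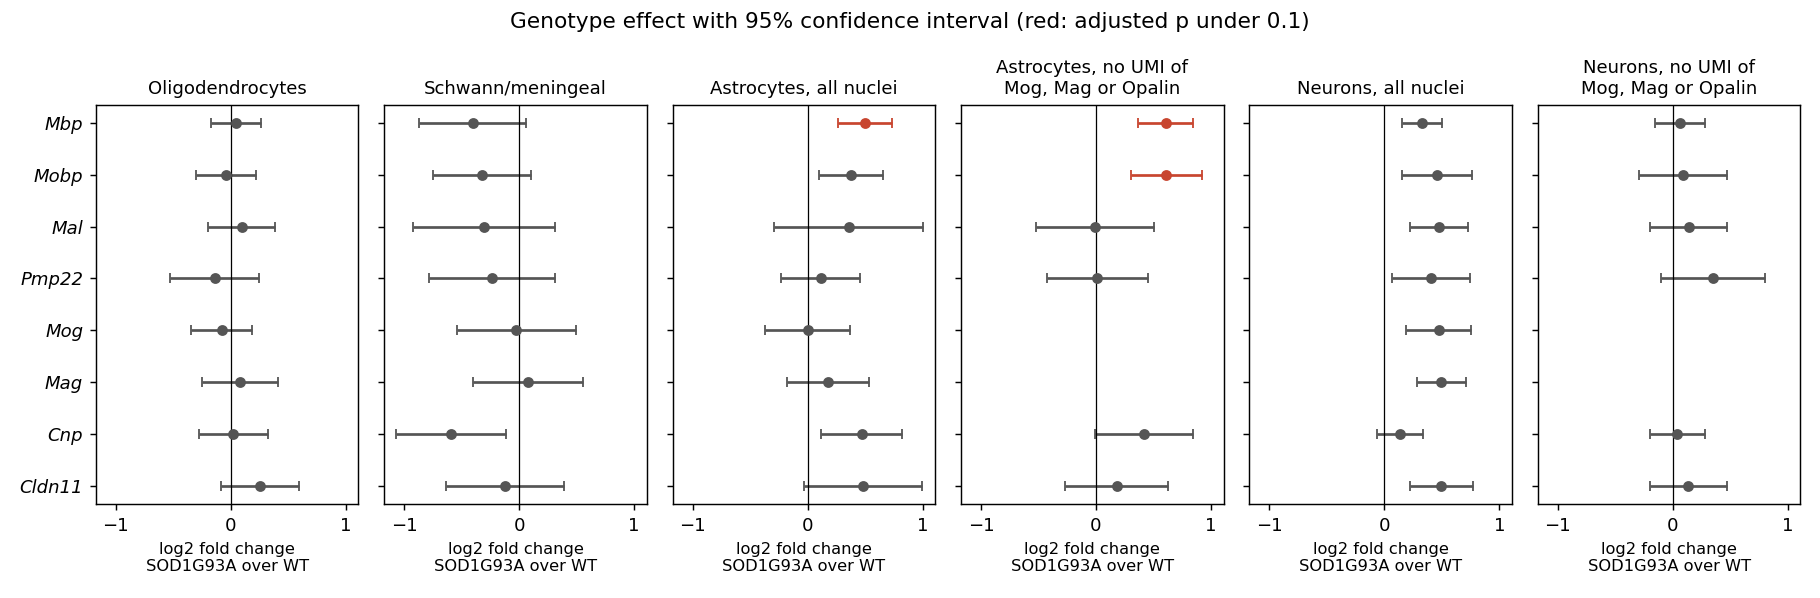
Log2 fold change of each gene, *SOD1G93A* over WT, with its 95% confidence interval, in 6 sets of nuclei (red, adjusted p under 0.1). Intervals in oligodendrocytes, and in neurons without *Mog*, *Mag* or *Opalin* UMIs, all span 0. Those of 3 genes in all astrocytes, 2 in astrocytes without these UMIs, 7 in all neurons and 1 in Schwann/meningeal cells do not. The sets without *Mog*, *Mag* or *Opalin* UMIs were chosen on 2 of the 8 genes, which therefore have no value there.

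In the nuclei that the study labelled Schwann and meningeal cells no genotype difference passed (2 of 5562 genes called, 0.036%). The 1031 nuclei (13 to 187 per mouse) had a median depth of 1584 UMIs. *Cnp* stood at 159, 261 and 415 CPM in WT mice and at 58.9, 199 and 249 CPM in *SOD1G93A* mice, higher in 1 of 6 pairs (-0.59 ± 0.24, adjusted p = 0.999). *Mbp* had a log2 fold change of -0.40 ± 0.23 (adjusted p = 0.999) and *Pmp22* one of -0.24 ± 0.27, and 7 of the 8 lay below 0 (median -0.27, beside -0.00110 over all genes). Neuron markers lay below 0 beside them, with *Rbfox3* at -0.61, *Camk2a* at -0.32 and *Grin1* at -0.18, as did the astrocyte marker *Aqp4* (-0.49), while *Gfap* was at 0.27 (adjusted p = 0.999 for each), and the part of RNA from other cells was not tested.

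The label was checked against 10 genes of peripheral myelin and Schwann cells, and most were near 0. *Pmp2*, a fatty-acid binding protein of peripheral myelin, had 0 UMIs, which allows up to 3. *Egr2*, the regulator of myelinating Schwann cells, had 2 UMIs, *Ngfr* 4, *Cldn19* 4, *Gldn* 12 and *Ncmap* 15. Only *Cldn19* and *Pou3f1* (34 UMIs) had their highest level here, and *Cdh19* (388 UMIs, 134 CPM) was higher in oligodendrocytes. The 10 genes summed to 188 ± 50.7 CPM here, below oligodendrocytes (682 ± 166 CPM), astrocytes (454 CPM), OPCs (378 CPM) and microglia (341 CPM), while astrocyte markers summed to 524 CPM, neuron markers to 440 CPM and fibroblast markers to 32.5 CPM. Of the 10 genes, 4 thus had 4 UMIs or fewer over all mice, and the list, which does not hold every known Schwann cell gene, did not mark these nuclei above other types, so they are called here by the study's label alone. Thinned to 1000 UMIs (802 nuclei, 229 being too shallow), *Mbp* was detected in 68.7%, *Mal* in 31.2%, *Mog* in 12.8% and *Pmp22* in 12.3% of them.

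*Mal* in endothelial cells and *Pmp22* in motor neurons were the furthest from their oligodendrocyte shares, and the part of RNA from other cells was not tested. *Mal* took 23.7 times its oligodendrocyte share of the 8 genes in endothelial cells. Of the 501 endothelial nuclei 492 lay in 1 cluster of the deposited clustering, with *Mal* at 334 CPM, at least 1 *Mal* UMI in 77.6% and a UMI of *Flt1*, *Cldn5* or *Pdgfrb* in 100%. Thinned to 1000 UMIs, *Mal* was detected in 27.7% of endothelial nuclei (95% exact binomial interval 23.8 to 31.9%, counting error only), in 12.1% of oligodendrocytes and in 0.98% of neurons. In Schwann/meningeal nuclei it was detected in 31.2%, and the *Mal* levels of these and of endothelial cells overlapped between mice. The level was 330 ± 85.9 CPM in WT and 331 ± 90.7 CPM in *SOD1G93A* mice (SD, n = 6), with a log2 fold change of -0.01 (interval -0.36 to 0.34) in a type where 1 of 7637 genes was called (0.0131%).

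*Pmp22* took 33.8 times its oligodendrocyte share of the 8 genes in motor neurons, of which 66 of 67 nuclei lay in 1 cluster with *Pmp22* at 50.1 CPM. Motor neurons are large cells whose axons leave the cord, and their nuclei were the deepest sequenced (median 53245 UMIs, beside 12864.5 in other neurons). *Pmp22* was detected in 79.1% of them at full depth and in 8.96% after thinning (exact interval 3.36 to 18.5%), beside 0.342% (0.231 to 0.488%) of other neurons. Over the 12 mice it ran from 19.5 to 91.5 CPM in motor neurons and from 1.59 to 5.47 CPM in other neurons, so that no values overlapped. It was 47.4 ± 15.8 CPM in WT and 47.6 ± 24.9 CPM in *SOD1G93A* mice (log2 fold change -0.05, interval -0.80 to 0.70), where 3.07% of 5118 genes were called between genotypes.

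In the remaining types the genes gave no call between genotypes. All 8 could be tested in microglia and 7 in OPCs, but only 1 in ependymal cells and 1 in fibroblasts. Called shares over all genes were 0.0759% of 9218 in microglia, 0.0411% of 4868 in OPCs, 0% of 471 in ependymal cells and 0% of 561 in fibroblasts. Over the 9 types other than oligodendrocytes 13 of 50 tests of the genes had an unadjusted p under 0.05 (26.0%, beside 7.61% of all genes). In the nuclei labelled microglia *Mog* had a log2 fold change of -0.32 ± 0.12 (adjusted p = 0.442) and *Pmp22* one of -0.98 ± 0.44 (adjusted p = 0.595). Neuron and OPC markers each summed above microglia markers in these nuclei, and the part of RNA from other cells was not tested.

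The wider programme of myelinating cells was read in oligodendrocytes from 5 further lists, and none of its 41 tested genes passed (limma; edgeR and DESeq2 called none). One had an unadjusted p under 0.05, *Enpp6*, an enzyme of newly forming oligodendrocytes, at 319 CPM and 0.36 ± 0.11 (adjusted p = 0.887). Of 15 other myelin membrane and cytoskeletal genes 6 lay above 0 and 9 below (median -0.03), with *Opalin* at -0.18, *Ermn* at 0.04, *Tspan2* at -0.21 and *Cd9* at 0.22. All 7 enzymes of myelin lipids lay above 0 (median 0.10), among them *Ugt8a*, which makes galactocerebroside (0.10), *Fa2h*, which hydroxylates its fatty acid (0.09), *Gal3st1*, which makes sulfatide (0.11), and the ceramide synthase gene *Cers2* (0.03). The 11 transcription factors had a median of 0.01, with *Sox10* at -0.01, *Olig1* at -0.02, *Olig2* at 0.01 and *Myrf* at 0.03. The 5 tested genes of newly formed oligodendrocytes had a median of 0.04 with *Itpr2* at -0.38 and *Gpr17* at 0.62, and 3 of the 10 peripheral genes could be tested (median -0.29).

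Between the sexes, averaged over genotypes, none of 58 tests of the genes in the 10 types was called by limma or edgeR, where 110 of 68984 tests of all genes were (0.159%). DESeq2 called 1, *Mobp* in OPCs, which was higher in females by 0.52 on the log2 scale (adjusted p = 0.230 with limma and 0.0981 with DESeq2). An unadjusted p under 0.05 was reached in 10 of the 58 (17.2%, beside 5.56% of all genes), among them *Cnp* in oligodendrocytes, lower in females (log2 difference, female minus male, -0.32, adjusted p = 0.915). For the difference in genotype effect between sexes none of 58 tests was called by limma, edgeR or DESeq2, the lowest adjusted p being 0.976, and 3 had an unadjusted p under 0.05 (5.17%, beside 3.11% of all genes). Over all genes 4 of 68984 such tests were called (0.0058%).

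Genes of like pattern were sought over the 96 sums of 8 cell types with nuclei of every mouse, as Pearson r of log2(CPM + 1), a description in which points of 1 mouse share a pool and points of 1 type a depth. *Mbp* was most like *Ermn* (0.91) and *Padi2* (0.91), *Mag* like *Aspa* (0.92) and *Tspan2* (0.91), and *Mobp* like *Anln* (0.95), *Aspa* (0.95) and *Ugt8a* (0.93). *Mog* was most like *Sec14l5* (0.94), *Enpp2* (0.94) and *Kcnk13* (0.92). *Cldn11* ran with *Ptgds* (0.90) and *Ermn* (0.90), and *Cnp* with *Cryab* (0.89), *Pfn2* (0.84) and *Sec11c* (0.84). The patterns of *Mal* (*Gng11* 0.88, *Selenop* 0.87, *Prdx1* 0.87) and of *Pmp22* (*S100a10* 0.75, *Anxa2* 0.75, *Acly* 0.73) were led by other genes, with the lowest r for *Pmp22*.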

How the data were processed

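The authors demultiplexed and aligned reads with Cell Ranger 3.1 and STAR 2.5.1b to the mm10 mouse genome with introns counted, assigned nuclei to mice by hashtag in Seurat 4.0.3, removed nuclei with few genes, much mitochondrial RNA or hashtags of more than 1 mouse, and deposited UMI counts per gene and nucleus with cell type labels. Nuclei caught together from 1 mouse were not marked. The deposited integrated expression values were not used. Here counts were summed per mouse and type and tested with limma 3.58.1 (voom, robust empirical Bayes) in R 4.3.3, with TMMwsp scaling and edgeR's filter at a minimum count of 10, on a model of genotype and sex with pool as a term. P-values were adjusted by Benjamini-Hochberg over all tested genes of a type, and calls were made at 0.1. edgeR 4.0.16 (quasi-likelihood) and DESeq2 1.42.0, other scalings, no filter, no pool term and leaving out each mouse were alternatives. On simulated counts of 10469 genes the fit recovered 96% of 2-fold and 35% of 1.5-fold changes, with 3.68% false calls. The simulation changed 200 genes, all with higher counts, and had a fixed spread between mice and no pool effect. Its rates are therefore not the power of the tests on the real counts. The mice of 1 pool shared library preparation, and over 18 same-pool pairs the median correlation of deviations was 0.111, beside -0.052 for other pairs. Mice are separate animals, and p-values set each difference against the spread between mice that remains after the terms for genotype, sex and pool. Detection was compared after thinning nuclei to 1000 UMIs, with floors of 3 counts. Intervals of shares cover counting error only. 

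The 8 genes, the further lists and the alternatives were chosen with earlier results of these data known. Text names the 8 genes, up to 4 genes of each list in list order and those that passed in oligodendrocytes or Schwann/meningeal cells, and for each of the 8 up to 3 genes of like pattern. *Cd9*, *Gfap* and *Aqp4* in astrocytes and the further genes of the label check were chosen after their values were seen, as were the analyses of nuclei without *Mog*, *Mag* or *Opalin* and of astrocyte sub-clusters. Some results on single genes are not reported here.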

Additional observations from a re-analysis of the deposited data

Results flagged for a closer look

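In 6 of 96 groups of 6 mice a single mouse lay farther from the rest than Dixon's 95% limit allows for the gap to its neighbour as a part of the group's range, and chance gives about 1 in 20 groups. *Cnp* in oligodendrocytes was at 101.2 CPM (175 UMIs) in the male *SOD1G93A* mouse of pool A, where the next was at 67.8 CPM (gap 0.665 of the range). The same mouse had *Mal* in microglia at 100.2 CPM (215 UMIs), where the next was at 51.4 CPM (0.743). The female *SOD1G93A* mouse of pool A had *Mog* in astrocytes at 67.9 CPM (20 UMIs; next 39.7 CPM, 0.698), and was the lowest for *Mag* in microglia at 76.6 CPM (18 UMIs; next 182 CPM, 0.658) and for *Pmp22* in Schwann/meningeal cells at 56.8 CPM (11 UMIs; next 99.6 CPM, 0.666). *Mobp* in Schwann/meningeal cells was at 620 CPM (55 UMIs) in the female WT mouse of pool A, where the next was at 415 CPM (0.663). All 6 values came from 3 mice of pool A. In 4 of the 6 the value rested on 55 UMIs or fewer.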

How the results depend on the processing

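In oligodendrocytes, their sub-clusters, the further lists and the sex by genotype difference, none of the genes was called under any of 20 alternatives. For the 9 other types the 1 call became 2 with DESeq2 (*Mbp* in astrocytes, *Mag* in neurons), 2 without nuclei carrying *Mog*, *Mag* or *Opalin* (*Mbp* and *Mobp* in astrocytes), 0 within the 5 astrocyte sub-clusters, and 0 to 2 when each mouse was left out in turn; without the pool term it stayed 1 (*Mbp*, adjusted p = 0.0627). For sex DESeq2 called 1 where limma called 0. In oligodendrocytes leaving out mice turned the sign of 6 log2 fold changes: *Mbp* ranged from -0.051 to 0.11, *Mog* from -0.18 to 0.0186, *Mag* from -0.0446 to 0.20, *Mobp* from -0.14 to 0.0506, *Cnp* from -0.0788 to 0.15 and *Mal* from -0.0284 to 0.20, while *Cldn11* (0.12 to 0.36) and *Pmp22* (-0.26 to -0.02) kept theirs. *Mog* in astrocytes, at 0.00, was -0.00496 with edgeR, -0.0108 with DESeq2, -0.0154 with TMM, -0.00564 with RLE, -0.0135 without the filter and -0.10 to 0.12 without single mice. *Mbp* in astrocytes was -0.10 in sub-cluster 2 and -0.27 in sub-cluster 4, and *Mal* in astrocytes was -0.00485 without nuclei carrying *Mog*, *Mag* or *Opalin*. The causes were not tested. With equal weight per nucleus 71 of 80 levels moved by less than 1 SD over mice (0.552 to 1.61 times), and in nuclei with at most 1 UMI of neuron markers 53 of 64 did (0.608 to 3.1 times). The limit of 1 UMI also selects nuclei by depth. Low levels limit *Pmp22* in neurons, OPCs and microglia, and few nuclei limit every gene in motor neurons, fibroblasts and oligodendrocyte sub-cluster 4.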
